A study of Oryza sativa with 4 samples.

Results

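The genes described here were the excision and mismatch repair genes of rice, taken as every gene model of the deposited annotation that carried one of 29 KEGG orthology identifiers for mismatch repair, base excision repair, nucleotide excision repair or photolyase. KEGG orthology identifiers group genes that are predicted to encode the same protein, and 28 of the 29 had at least 1 rice locus. The identifiers selected 45 of 55986 gene models: 8 for mismatch repair, 12 for base excision repair, 23 for nucleotide excision repair and 2 for photolyase. The identifier of APEX1, an endonuclease that cuts DNA at sites without a base, had no locus. Proteins are called here by the usual names of their identifiers, so a name is a prediction for the locus and not a test of its function. Of the 45 loci, 26 also carried a gene ontology term for repair, and 7 carried no gene ontology term.

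RNA was sequenced from whole 7-day-old seedlings of the mre11 mutant and of WT rice (cultivar Japonica, Dongjin background), with 2 libraries per genotype. The labels name no treatment for either genotype. The mre11 mutant is 1 line, with a T-DNA insertion in an intron of Mre11, and each library was made from plants pooled before extraction. Mre11 encodes a nuclease that works with Rad50 and Nbs1 at broken DNA ends. The comparison asked how transcript levels of seedlings without intact Mre11 differed from those of WT seedlings.

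Excision repair removes a damaged or wrong stretch from 1 strand of DNA and fills the gap by copying the other strand. In base excision repair a glycosylase removes a single altered base, in nucleotide excision repair a short oligonucleotide around a bulky lesion such as an ultraviolet photoproduct is cut out, and in mismatch repair the newly made strand is removed from a replication error. Photolyases reverse ultraviolet photoproducts directly with the energy of light. The excision pathways share their last steps, polymerization and ligation, with DNA replication, and several mismatch and uracil repair proteins are known from yeast and animals to act at replication forks.

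The counts on gene models summed to 19004825 and 17170661 in the mre11 libraries, and to 12753324 and 16460543 in the WT libraries. In each library, 28322 to 29993 gene models had at least 1 count, and 24470 gene models passed edgeR's filter on low counts and were tested. Across genes, which are not independent replicates, log2 CPM correlated at r = 0.971 between the mre11 libraries and at 0.974 between the WT libraries, against 0.886 to 0.892 between genotypes. CPM is the count scaled to a common library size, here with edgeR's TMM factors. As a check of the labels, Mre11 (LOC_Os04g54340) had 132 and 118 counts in the mre11 libraries, against 306 and 471 counts in the WT libraries. Its log2 fold change was -2.09 (SE 0.19, adjusted p = 0.00141). All tests below are edgeR's quasi-likelihood test with Benjamini-Hochberg adjustment over all tested genes, and fold changes are mre11 over WT. Nothing in the labels says that the samples of a genotype were grown separately, so p-values measure only the spread between these samples, which may be technical. With 2 samples against 2, a permutation of a single gene could not give p below 0.333.

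Most repair genes did not pass the test between genotypes. Of the 39 members that could be tested, 4 were higher in mre11 and 4 were lower at an adjusted p under 0.05. These were 10.3% of the tested members in each direction, against 18.8% of all tested genes higher and 18.3% lower. In either direction, 8 members (20.5%) passed, against 37.1% of all tested genes. All of the 4 higher members were at least 2-fold higher, so that 10.3% of the tested members were both, against 12.0% of all tested genes. Of the tested members, 0 were at least 2-fold lower at an adjusted p under 0.05 by edgeR, against 9.31% of all tested genes. The lowest log2 fold change of a tested member was -0.88, so no threshold on p could change that count. It was also 0 by DESeq2 and by limma, and limma called 0 members lower at any fold change. Without mre11 replicate 1, the log2 fold change was -1.50 for MSH3, -1.23 for CSA (LOC_Os01g63900), -1.08 for photolyase (LOC_Os10g08580) and -1.05 for CSB (LOC_Os01g44990). The median log2 fold change was -0.08 over the tested members and 0.03 over all tested genes. The members that did not pass had log2 fold changes of -0.88 to 0.48, and 6 of these 31 had an unadjusted p under 0.05. In bulk seedlings, fewer cells of a type and less RNA per cell cannot be told apart, and this holds for every difference below.

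**Figure D1:**
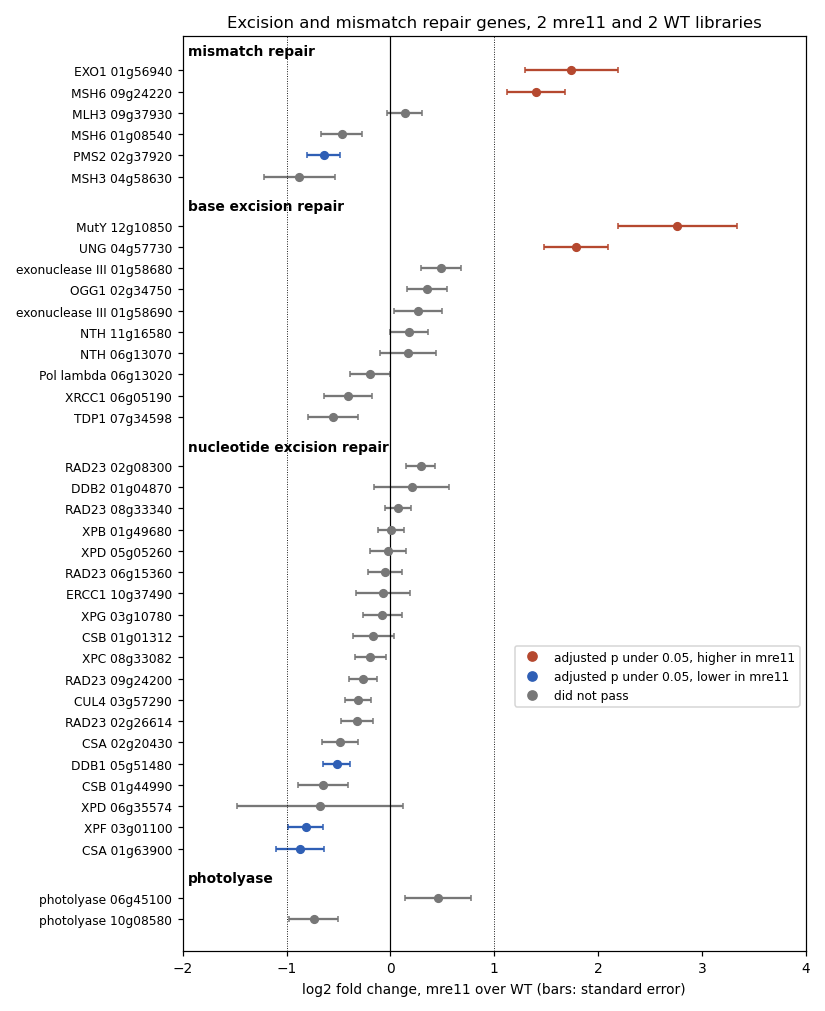
Log2 fold change (mre11 over WT) of 37 of the 39 tested members, grouped by repair class, with the standard error as a bar and dotted lines at 2-fold. The 4 higher members lie at 1.40 to 2.76 and the 4 lower members at -0.87 to -0.52, and the others lie between -0.88 and 0.48.

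The 8 members that passed fell into different classes. The higher members were 2 mismatch repair genes and 2 base excision glycosylase genes. The lower members were 3 nucleotide excision repair genes and 1 mismatch repair gene. Scaled by library size alone, all 4 higher members passed and 1 lower member (XPF) did. The median of all tested genes moved by 0.16 on the log2 scale under that scaling, and the median of the tested members was 0.09 in place of -0.08. Relative to all tested genes the members' median was -0.11 with TMM scaling and -0.10 with library size alone.

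Among the mismatch repair genes, the exonuclease EXO1 and 1 of the 2 loci of MSH6 were higher in mre11, and PMS2 was lower. EXO1 (LOC_Os01g56940, chromosome 1) degrades the strand that carries the error. It had 73 and 59 counts in the mre11 libraries, against 8 and 21 counts in the WT libraries. Both mre11 libraries were above both WT libraries, at 3.53 and 3.35 CPM against 0.672 and 1.34 CPM. The log2 fold change of EXO1 was 1.74 (SE 0.45, adjusted p = 0.0254). It had few counts, and it did not pass without WT replicate 1, without mre11 replicate 1 or without mre11 replicate 2. The log2 fold changes were then 1.35, 1.71 and 1.77.

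MSH6 binds single mispaired bases and short loops as part of a MutS heterodimer, and the annotation gave its identifier to 2 loci. LOC_Os09g24220 on chromosome 9 had 184 and 172 counts in the mre11 libraries, against 36 and 63 counts in the WT libraries. Its mean was 9.33 ± 0.63 CPM in mre11 and 3.52 ± 0.70 CPM in WT (SD, n = 2 each), a log2 fold change of 1.40 (SE 0.28, adjusted p = 0.0112, and 0.0655 without WT replicate 1). The other locus, LOC_Os01g08540 on chromosome 1, had 230 and 215 counts in mre11, against 176 and 274 counts in WT. Scaled to CPM, it was lower in both mre11 libraries (11.1 and 12.2 CPM) than in both WT libraries (14.8 and 17.4 CPM), but its log2 fold change of -0.47 did not pass (SE 0.20, adjusted p = 0.106). The loci of MSH6 thus stood on opposite sides of 0, and only the less expressed one passed.

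Within a library the share of each locus needs no scaling between libraries. LOC_Os09g24220 held 44.4% (exact 95% interval 39.6 to 49.4%) and 44.4% (39.4 to 49.6%) of the counts of both MSH6 loci in the mre11 libraries. In the WT libraries it held 17.0% (12.2 to 22.7%) and 18.7% (14.7 to 23.3%). The intervals of the mre11 libraries lay above those of the WT libraries. These intervals, like all those below, cover counting error only. How strand was treated when reads were counted is not given in the sources used here, so reads of near-identical copies and of overlapping genes may be divided wrongly.

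PMS2 (LOC_Os02g37920, chromosome 2), which cuts the strand to be removed as part of a MutL heterodimer, was lower in mre11. It had 20.9 and 19.1 CPM in the mre11 libraries, against 30.5 and 31.9 CPM in the WT libraries. Each genotype's pair lay close together and the pairs did not overlap. The log2 fold change was -0.64 (SE 0.16, adjusted p = 0.0212). PMS2 no longer passed with library size alone (adjusted p = 0.0725), with limma (0.116), without WT replicate 1 (0.0924), without WT replicate 2 (0.115) or without mre11 replicate 2 (0.0521).

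MSH3 and MLH3 did not pass. MSH3 (LOC_Os04g58630), which acts at larger loops, had 2.90 and 1.31 RPKM in mre11, against 3.40 and 3.46 RPKM in WT. Here the mre11 libraries differed from each other while the WT libraries nearly coincided, and the log2 fold change of -0.88 did not pass (SE 0.35, adjusted p = 0.0898, and 0.00619 without mre11 replicate 1). The annotation of that locus also lists cation transport. MLH3 (LOC_Os09g37930), a MutL protein of meiotic crossing over, had a log2 fold change of 0.14 (SE 0.17, adjusted p = 0.551).

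The 10 tested base excision repair genes included the highest fold change of all members. MutY (LOC_Os12g10850, chromosome 12), a glycosylase that removes adenine paired with oxidized guanine, had 52 and 42 counts in the mre11 libraries, against 2 and 8 counts in the WT libraries. The WT counts were near the floor of 3 counts, which was 0.182 to 0.235 CPM before scaling in the WT libraries. Summed over each genotype and scaled for library size, the 94 counts in mre11 were 6.78 times the 10 counts in WT, with an exact 95% interval of 3.53 to 14.6 for counting error only. The fitted log2 fold change of MutY was 2.76 (SE 0.57, adjusted p = 0.0127, and 0.0624 without WT replicate 1). The neighbouring loci LOC_Os12g10900 and LOC_Os12g10910 carried the same identifier and had 0 counts in all 4 libraries, which allows up to 3 counts per library.

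UNG (LOC_Os04g57730, chromosome 4), the glycosylase that removes uracil from DNA, was the member whose call held under every alternative tried. It had 138 and 111 counts in mre11, against 21 and 31 counts in WT. The mean was 6.49 ± 0.25 CPM in mre11 and 1.87 ± 0.15 CPM in WT (SD, n = 2 each). The log2 fold change of UNG was 1.79 (SE 0.31, adjusted p = 0.0071), and over 10 alternatives it ranged between 1.43 and 1.95 with an adjusted p of at most 0.0466. Without WT replicate 1, UNG was the only member that passed.

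None of the other base excision repair genes passed, and in this class the count of lower members was 0 by edgeR at an adjusted and at an unadjusted p under 0.05, by DESeq2 and by limma. Exodeoxyribonuclease III, which cuts beside sites without a base, was listed for adjacent loci of chromosome 1. LOC_Os01g58680 had 28.8 and 22.6 CPM in mre11, against 17.5 and 19.3 CPM in WT, and its log2 fold change was 0.48 (SE 0.19, adjusted p = 0.0895, and 0.0448 without mre11 replicate 2). The adjacent LOC_Os01g58690 had 8.79 and 8.86 CPM in mre11, against 6.80 and 7.83 CPM in WT (log2 fold change 0.27, adjusted p = 0.393). Both loci thus had higher values in both mre11 libraries, without passing. The 2 loci of NTH, a glycosylase for oxidized pyrimidines, overlapped between genotypes, with log2 fold changes of 0.17 (LOC_Os06g13070) and 0.18 (LOC_Os11g16580).

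The locus with the identifier of OGG1, the glycosylase for oxidized guanine, was LOC_Os02g34750. Its gene ontology terms were those of a protein kinase, which goes against the name. It had 12.8 and 13.3 CPM in mre11, against 10.3 and 10.1 CPM in WT (log2 fold change 0.35, adjusted p = 0.198). The later steps of the pathway lay on the other side of 0. XRCC1 (LOC_Os06g05190), a scaffold of single-strand break repair, TDP1 (LOC_Os07g34598), which frees DNA ends from trapped topoisomerase, and DNA polymerase lambda (LOC_Os06g13020), which fills short gaps, had log2 fold changes of -0.41, -0.55 and -0.20. In each of these genes both mre11 libraries were below both WT libraries, and 0 of the 3 passed (adjusted p 0.118 to 0.441).

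**Figure D2:**
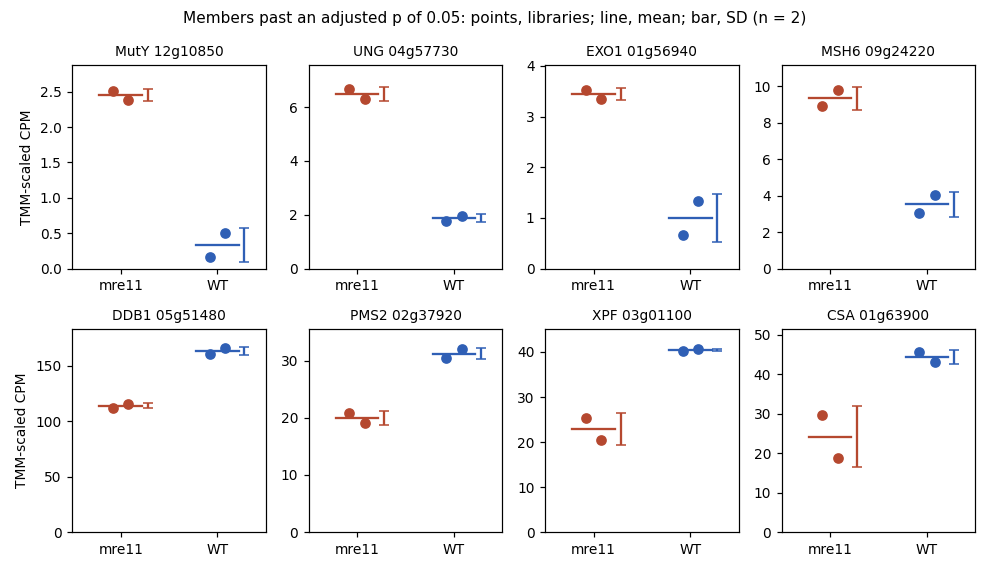
TMM-scaled CPM of the 8 members with an adjusted p under 0.05, with 1 point per library (mre11 left, WT right), the mean as a line and the SD as a bar (n = 2). The libraries do not overlap in any panel; the upper row holds genes at under 10 CPM in every library, and the lower row genes at 18.8 to 166 CPM.

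Nucleotide excision repair was the largest class, with 19 tested loci. None (0) of them were higher in mre11, at an adjusted or unadjusted p under 0.05 by edgeR, by DESeq2 or by limma. The endonuclease subunit XPF, the damage sensor subunit DDB1 and 1 locus of CSA were lower, against 18.3% of all tested genes lower and 18.8% higher. Both mre11 libraries lay below both WT libraries in 9 of the 19 loci and above them in 2. Over all tested members these numbers were 16 (41.0%) and 10 (25.6%) of 39, against 35.7% of all tested genes below and 37.5% above. The median log2 fold change of the class was -0.20. Limma on log2(RPKM + 1), which also uses another scaling, called 0 of the 19 lower.

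Lesions are found by XPC with RAD23, by the DDB1 and DDB2 complex with CUL4, or, where RNA polymerase is stalled, by CSA and CSB. DDB1 (LOC_Os05g51480, chromosome 5) had 112 and 115 CPM in mre11, against 160 and 166 CPM in WT. Its means were 114 ± 2.2 CPM in mre11 and 163 ± 3.9 CPM in WT (SD, n = 2 each). The libraries of each genotype lay close together and the genotypes did not overlap, with a log2 fold change of -0.52 (SE 0.13, adjusted p = 0.0228). It did not pass with library size alone (adjusted p = 0.0796), without WT replicate 1 (0.0948), without WT replicate 2 (0.114) or without mre11 replicate 1 (0.0629). A further locus with the DDB1 identifier, LOC_Os01g40320, had 10 and 3 counts in mre11 and 5 and 4 counts in WT, too few to be tested.

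The partners of DDB1 did not pass. CUL4 (LOC_Os03g57290), the ubiquitin ligase scaffold that binds DDB1, had 91.0 and 88.2 CPM in mre11, against 111 and 111 CPM in WT, with a log2 fold change of -0.31 (SE 0.13, adjusted p = 0.0986). DDB2 (LOC_Os01g04870), the subunit that contacts the lesion, had 4.54 and 4.83 CPM in mre11 and 5.21 and 2.99 CPM in WT. Its WT libraries lay on either side of the mre11 libraries. The log2 fold change of DDB2 was 0.20 (SE 0.36), and it was -0.16 without WT replicate 2.

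CSA brings a ubiquitin ligase to stalled RNA polymerase, and its identifier was listed for 2 loci. LOC_Os01g63900 (chromosome 1) had 614 and 330 counts in mre11, against 544 and 677 counts in WT, or 29.7 and 18.8 CPM against 45.7 and 43.1 CPM. Its log2 fold change was -0.87 (SE 0.23, adjusted p = 0.0275), and it did not pass with library size alone (0.0656), without WT replicate 1 (0.128) or without WT replicate 2 (0.11). The second locus, LOC_Os02g20430, had 37.9 and 28.9 CPM in mre11, against 47.0 and 46.6 CPM in WT (log2 fold change -0.49, adjusted p = 0.066, and 0.0236 without mre11 replicate 1). CSB (LOC_Os01g44990), a chromatin remodeller that binds the stalled polymerase, had 45.2 and 27.2 CPM in mre11, against 57.0 and 56.7 CPM in WT (log2 fold change -0.65, adjusted p = 0.0753, and 0.00471 without mre11 replicate 1). These 3 loci shared a pattern: the WT libraries lay close together, mre11 replicate 1 was below them and mre11 replicate 2 was lower still. A further CSB locus, LOC_Os01g01312, had a log2 fold change of -0.16 with overlapping libraries. The CSB locus LOC_Os09g21810, whose gene ontology terms concern DNA integration, had 0 counts in both mre11 libraries and 0 and 2 counts in the WT libraries, and was not tested.

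XPC and the RAD23 loci did not pass. XPC (LOC_Os08g33082) had a log2 fold change of -0.20 (SE 0.15, adjusted p = 0.332). RAD23, which stabilizes XPC and also carries ubiquitinated proteins to the proteasome, was listed for 6 loci. One of them, LOC_Os08g21630, had 0 counts in all 4 libraries. The other 5 reached up to 76.9 RPKM (the deposited level, scaled by length and library total) for LOC_Os06g15360 as the mean of the 4 libraries. Their log2 fold changes ran between -0.32 (LOC_Os02g26614) and 0.29 (LOC_Os02g08300), and 0 of them passed.

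The unwinding step is carried out by the helicases XPB and XPD of transcription factor TFIIH. XPB (LOC_Os01g49680) had 63.5 and 63.7 CPM in mre11, against 64.3 and 62.8 CPM in WT. The 4 values were nearly equal, and the log2 fold change was 0.00 (SE 0.12). XPD (LOC_Os05g05260) had 17.5 and 16.6 CPM in mre11, against 18.0 and 16.8 CPM in WT, a log2 fold change of -0.03 (SE 0.17). Neither gene had separate groups of libraries. A second XPD locus, LOC_Os06g35574, had 3 and 13 counts in mre11 and 9 and 10 counts in WT, so its log2 fold change of -0.68 had an SE of 0.80. The locus LOC_Os03g56100, also listed for XPD, had 0 counts.

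The cuts on both sides of the lesion are made by XPG and by XPF with ERCC1. XPF (LOC_Os03g01100, chromosome 3), the catalytic subunit, had 526 and 360 counts in the mre11 libraries, against 479 and 639 counts in the WT libraries. Its means were 22.9 ± 3.5 CPM in mre11 and 40.4 ± 0.30 CPM in WT (SD, n = 2 each). XPF was the only lower member that also passed with library size alone (adjusted p = 0.0344). Its log2 fold change was -0.82 (SE 0.17, adjusted p = 0.012), and the adjusted p was 0.0706 without WT replicate 1, 0.0772 without WT replicate 2 and 0.0532 with limma. ERCC1 (LOC_Os10g37490), the DNA-binding partner of XPF, had 9.36 and 5.57 RPKM in mre11 and 6.78 and 7.18 RPKM in WT, with a log2 fold change of -0.07 (SE 0.26). XPG (LOC_Os03g10780) had a log2 fold change of -0.08 (SE 0.19) with overlapping libraries.

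Photolyase was listed for 2 loci that stood on opposite sides of 0. LOC_Os10g08580 (chromosome 10), the more expressed, had 22.7 and 14.8 CPM in mre11, against 33.9 and 28.9 CPM in WT. Both mre11 libraries were below both WT libraries, and the log2 fold change of -0.74 lay just outside the threshold (SE 0.24, adjusted p = 0.0511, and 0.00874 without mre11 replicate 1). It passed with DESeq2 (adjusted p = 0.0331) and with RLE size factors (0.0465). It also passed with no filter on low counts (adjusted p = 0.00928) and with the replicate block (0.0254). The labels do not say whether the replicate numbers pair the samples. LOC_Os06g45100 (chromosome 6) had 4.44 and 6.08 CPM in mre11, against 4.03 and 3.63 CPM in WT (log2 fold change 0.46, SE 0.31, adjusted p = 0.289). Its share of the counts of both loci was 16.3% (13.4 to 19.7%) and 29.2% (24.6 to 34.1%) in the mre11 libraries. In the WT libraries it was 10.6% (7.93 to 13.8%) and 11.2% (8.56 to 14.2%). The interval of mre11 replicate 1 overlapped those of the WT libraries, and only that of mre11 replicate 2 lay above them.

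Ratios between genes within a library are given for 2 pairs of protein partners, which were chosen after the values had been seen, and carry no test. XPF had 1.59 and 2.02 counts per count of ERCC1 in the mre11 libraries, against 2.98 and 2.90 in the WT libraries. The ratio of DDB1 to CUL4 was 1.23 and 1.31 in mre11, against 1.44 and 1.5 in WT. In both pairs the mre11 ratios lay below the WT ratios.

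**Figure D3:**
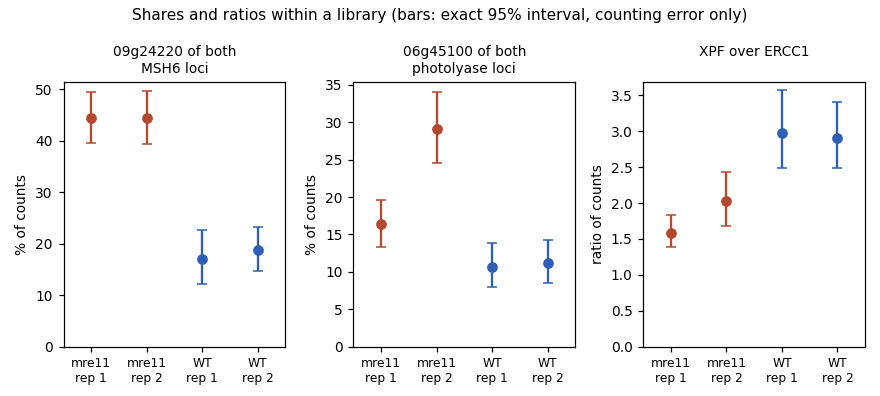
Shares of counts (first 2 panels, in percent) and the ratio of counts of XPF to ERCC1 (last panel) within each library, mre11 left of WT, with exact 95% intervals for counting error only. The MSH6 locus LOC_Os09g24220 held 44.4% in both mre11 libraries against 17.0% and 18.7% in WT, and XPF over ERCC1 was 1.59 and 2.02 in mre11 against 2.98 and 2.90 in WT.

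The higher and the lower members did not overlap in level. The 4 higher members had a mean RPKM over the 4 libraries of 0.735 to 3.49, and the 4 lower members one of 7.25 to 27.6. Below a mean of 5 RPKM, 4 of the 15 tested members were higher and 0 were lower. At or above 5 RPKM, 0 of 24 were higher and 4 were lower. Among all tested genes, 15.7% were higher and 9.29% lower below 5 RPKM, against 20.5% higher and 23.6% lower at or above it. Over all tested genes the median log2 fold change was 0.42 between 0.25 and 0.5 RPKM, -0.09 between 32 and 64 RPKM and 0.14 in the highest bin of level drawn, which starts at 64 RPKM. The part of level in the members' pattern was not tested.

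**Figure D4:**
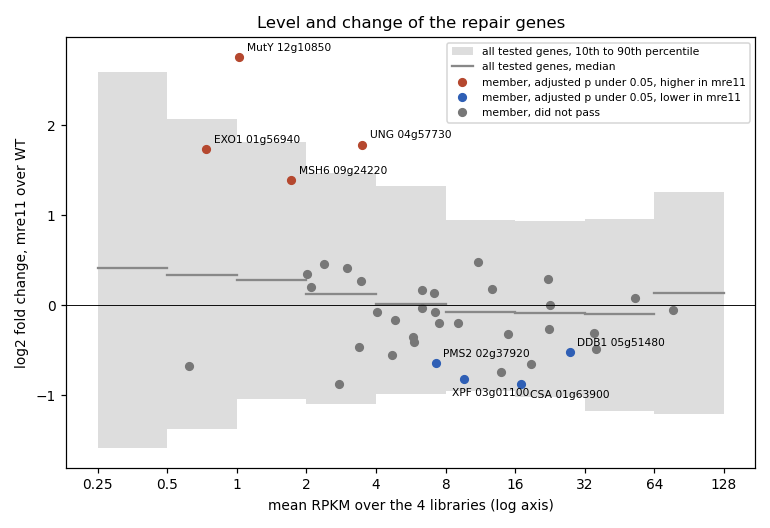
Log2 fold change (mre11 over WT) of the 39 tested members against their mean RPKM over the 4 libraries on a log axis, with the median (line) and the 10th to 90th percentile (grey) of all tested genes in each bin of level. The 4 higher members lie at 0.735 to 3.49 RPKM and the 4 lower members at 7.25 to 27.6 RPKM.

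Some members lay close together on a chromosome. The adjacent exodeoxyribonuclease III loci LOC_Os01g58680 and LOC_Os01g58690 were on the same side of 0, at 0.48 and 0.27. The RAD23 locus LOC_Os09g24200 and the MSH6 locus LOC_Os09g24220 were separated by 1 gene model and had log2 fold changes of -0.26 and 1.40. On chromosome 6, DNA polymerase lambda and NTH were separated by 4 gene models, with log2 fold changes of -0.20 and 0.17. UNG and MSH3 lay on chromosome 4, as does Mre11 itself, and stood on opposite sides of 0.

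Genes of the steps that finish excision repair passed in both directions. Of 43 tested loci for the shared late steps (ligase, flap endonuclease, PCNA, clamp loader, polymerases delta and epsilon, and the single-strand binding protein RPA), 14 were higher and 6 were lower at an adjusted p under 0.05, against 18.8% of all tested genes higher and 18.3% lower. PCNA (LOC_Os02g56130), the sliding clamp that binds MSH6, EXO1 and UNG in animals or yeast, had 2130 and 1380 counts in mre11, against 370 and 438 counts in WT. Its log2 fold change was 1.62 (SE 0.18, adjusted p = 0.00191). For the flap endonuclease FEN1, locus LOC_Os05g46270 was higher (log2 fold change 0.84, adjusted p = 0.00824) and locus LOC_Os05g46280 did not pass (-0.18, adjusted p = 0.498). For the replicative ligase LIG1, locus LOC_Os01g49180 was lower (-0.59, adjusted p = 0.0375) and locus LOC_Os10g34750 did not pass (-0.10, adjusted p = 0.569). The FEN1 and LIG1 loci were chosen after their values were seen. Without WT replicate 1, the counts over these loci were 7 higher and 1 lower, and without WT replicate 2 they were 8 and 2.

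Among the late steps, loci of the clamp loader and of RPA1 passed in both directions. The polymerase loci that passed were higher. POLE1 (LOC_Os02g30800), the catalytic subunit of polymerase epsilon, had a log2 fold change of 1.34, and its subunits POLE2 (LOC_Os05g06840) and POLE3 (LOC_Os09g39490) had 2.72 and 1.06. POLD3 (LOC_Os01g10690), a subunit of polymerase delta, was higher at 1.46. The clamp loader locus RFC3/5 (LOC_Os10g42400) had 68 and 55 counts in mre11, against 6 and 6 counts in WT (2.85). RFC2/4 locus LOC_Os04g48060 and RFC3/5 locus LOC_Os03g57870 were also higher, at 0.79 and 0.60. RFC2/4 locus LOC_Os12g07720 and RFC3/5 locus LOC_Os02g47605 were lower, at -0.55 and -0.68. Of the RPA loci, RPA1 (LOC_Os03g11540 and LOC_Os05g02040) and RPA2 (LOC_Os02g58220) were higher, at 2.80, 1.29 and 2.17, whereas RPA1 loci LOC_Os01g12340 and LOC_Os01g14770 were lower, at -1.44 and -1.01. All of these genes passed at an adjusted p under 0.05. Tested polymerase loci that did not pass were POLD1 (LOC_Os11g08330, 0.34), POLD2 (LOC_Os03g03650, 0.65) and POLE2 (LOC_Os08g36330, 1.23). The POLD4 loci LOC_Os08g06620 (1.44) and LOC_Os09g34850 (-0.17) did not pass either.

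The remaining partners of each pathway were read against the same shares of all tested genes. Of 13 tested loci for other nucleotide excision proteins, mostly TFIIH subunits, 0 passed in either direction, at an adjusted or unadjusted p by edgeR, by DESeq2 or by limma. Of 22 tested loci for other base excision proteins, 3 were higher and 4 were lower. One locus of the poly(ADP-ribose) polymerase PARP (LOC_Os01g24940), a sensor of strand breaks, was higher, with a log2 fold change of 2.12. The other loci of that identifier did not pass and lay below 0. They were LOC_Os01g24920 (-0.76), LOC_Os02g32860 (-0.21) and LOC_Os07g23110 (-0.26). HMGB1 (LOC_Os06g51220), an abundant DNA-bending protein with a role in base excision in animals, was lower at -1.54. The meiotic relatives of the mismatch proteins also passed in opposite directions, with MSH4 (LOC_Os07g30240) lower at -1.32 and the adjacent MSH5 loci LOC_Os05g41880 and LOC_Os05g41890 higher at 1.35 and 1.03. The locus for cryptochrome and 6-4 photolyase did not pass (0.35).

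**Figure D5:**
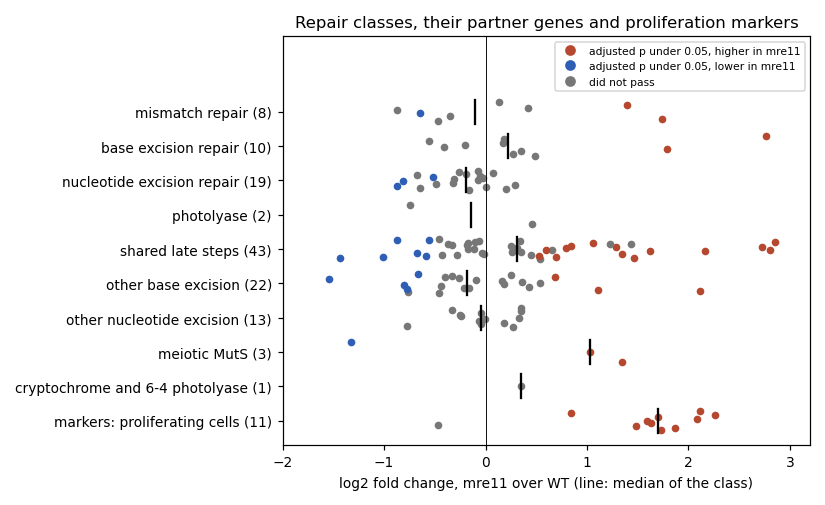
Log2 fold change (mre11 over WT) of each tested locus in the 4 repair classes, in the partner groups and among the markers of proliferating cells, with the number tested in brackets and the median as a line. The shared late steps reach from -1.44 to 2.85, and 10 of the 11 proliferation markers lie to the right of 0 with an adjusted p under 0.05.

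Markers of other cell states moved with genotype. Of the 11 tested markers of proliferating cells (MCM2 to MCM7 and ribonucleotide reductase), 10 were higher in mre11, against 18.8% of all tested genes. The other, MCM3 locus LOC_Os05g08100, had a log2 fold change of -0.47 and did not pass (adjusted p = 0.349). The summed level of the 11 markers was 398 and 361 CPM in the mre11 libraries, against 131 and 126 CPM in the WT libraries, and none was at 0. Whether these transcript levels followed the number of dividing cells was not tested. Of 9 green leaf markers (LHCB1 to LHCB6), 8 were tested and 5 were higher, against the same 18.8% of all tested genes. The 9 loci had a summed level of 15214 and 24379 CPM in mre11, against 6328 and 10642 CPM in WT. One of the LHCB1 loci was at 0. The 9 loci of alpha-amylase, a marker of endosperm and aleurone, summed to 43.5 and 69.3 CPM in mre11 and 60.6 and 55.9 CPM in WT, and 0 of the 4 tested passed by edgeR, by DESeq2 or by limma, with 1 at an unadjusted p under 0.05. The part of these markers in the differences of the repair genes was not tested. Summed over all 45 members, the repair genes had 1191 and 1120 CPM in mre11, against 1341 and 1315 CPM in WT, and the nucleotide excision class had 923 and 890 CPM in mre11, against 1081 and 1054 CPM in WT.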

How the data were processed

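Total RNA of 7-day-old seedlings was sequenced with standard Illumina libraries, in 2 mre11 and 2 WT samples. The authors mapped the reads to the rice pseudomolecules and transcripts (version 7) and deposited counts per gene model, not normalized; the submitters' processing notes name HTSeq 0.6.1 and DESeq2 1.6.3. The aligner and the strand setting are not given in the sources used here. The authors also deposited RPKM values, their counts scaled by length and library total, which were used for levels between genes and for 1 alternative.

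The counts were fitted by genotype alone with edgeR 4.0.16 under R 4.3.3, using its filterByExpr, TMM, glmQLFit and glmQLFTest functions, with Benjamini-Hochberg adjustment over 24470 genes. SE is the log2 fold change divided by the root of F. Totals per library were 12753324 to 19004825 counts, so the floor of 3 counts was 0.158 to 0.235 CPM, before TMM scaling. Intervals of shares and of count ratios are exact binomial (Clopper-Pearson) at 95%. The procedure was tested on simulated data with known changes.

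Text names every member past an adjusted p of 0.05, the member with the most counts for each identifier, and Mre11. It also names partner genes past that threshold and at least 2-fold. Further loci are named to account for all 45 members, or beside named partner genes. The members and lists were chosen with earlier results of these data known. Alternatives were RLE size factors, library size alone, no filter on low counts, a replicate block, DESeq2 1.42.0, limma 3.58.1 on log2(RPKM + 1), an adjusted p under 0.01 and leaving out each library. Some genes that the lists hold are counted but not reported by name here. None (0) of the members matched the RefSeq gene table, so no position beyond the chromosome in the identifier and no sequence is given.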

Additional observations from a re-analysis of the deposited data

How the results depend on the processing

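The members higher in mre11 numbered 4 under RLE, library size alone, no filter, DESeq2, limma and the replicate block, and 1 at an adjusted p under 0.01; leaving out a library gave 1 to 4. The members lower in mre11 numbered 4, against 5 with RLE and with DESeq2, 1 with library size alone, 0 with limma, 8 with no filter, 6 with the replicate block, 0 at an adjusted p under 0.01 and 0 to 7 with a library left out. Members at least 2-fold higher numbered 4, against 2 with limma and 1 at an adjusted p under 0.01, and 1 to 4 with a library left out; 0 were at least 2-fold lower, except 4 without mre11 replicate 1. Without WT replicate 1, 1 was higher and 0 were lower. A sample left alone in its genotype was assumed to vary like the other genotype's samples. Deviations of same-numbered libraries correlated at r = -0.0035 across genes, which gave no sign of pairing. With 2 libraries per genotype this cannot exclude a shared day, and the labels do not name one. The replicate block is therefore only an alternative. Of all calls, 50.6% were higher with TMM, against 64.4% with library size alone and 65.2% with limma. The members' median log2 fold change was -0.08, against 0.089 with library size alone and -0.18 to -0.06 with a library left out.

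All 8 members that passed kept their sign in the 10 alternatives, with the call kept in 10 for UNG, 9 for MutY and MSH6 locus LOC_Os09g24220, 7 for EXO1 and XPF, 6 for CSA and 5 for PMS2 and DDB1. Values near 0 changed sign. XPB was -0.013 with RLE and -0.014 with DESeq2. With library size alone RAD23 (LOC_Os06g15360) was 0.11, XPD 0.14, XPG 0.089 and ERCC1 0.098, and with limma these were 0.11, 0.12, 0.072 and 0.048. Leaving out a library gave RAD23 -0.18 to 0.075, DDB2 -0.16 to 0.64, XPB -0.025 to 0.011, XPD -0.083 to 0.013, XPG -0.20 to 0.039 and ERCC1 -0.44 to 0.21.

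Partner genes, counted under the same alternatives chosen after seeing the data, were 14 higher and 6 lower for the late steps and 19 and 11 in all. Lower counts fell to 2 and 6 with library size alone and to 1 and 4 with limma. With a library left out, late steps gave 7 to 12 higher and 1 to 3 lower, and all partners 8 to 14 and 4 to 8. The cause of these changes was not tested, beyond the loss of a library. In WT, MutY had 2 and 8 counts and EXO1 8 and 21 counts, and 6 loci were not tested.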
